A study of Drosophila melanogaster with 20 samples.

Results

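The comparison described here is that of brains of female *Drosophila melanogaster* kept on 2 diets, over every gene measured well enough to test. It uses 10 of the 20 libraries of the study: 5 from females on a diet called low protein, high carbohydrate (LPHC; protein to carbohydrate 1:2 at 360 g/L) and 5 from females on a diet called high protein, low carbohydrate (HPLC; 1:1 at 90 g/L). All flies were wild-type W1118, aged 4 to 7 days, and neither diet had a genetic or drug treatment beside it. The female diets differed in ratio and in concentration at once, and these cannot be told apart. What the g/L figure counts is not stated. Taken as protein plus carbohydrate, it gives LPHC 120 g/L protein and 240 g/L carbohydrate, against 45 g/L of each in HPLC, so that the diet named low in protein would hold more of it. The other 10 libraries came from males on other recipes, and the study asked how diet relates to sleep. How many brains entered a library, and whether the 5 libraries of a diet stem from separately reared flies, is not stated, and a p-value here speaks only of the scatter among libraries, part of which may be technical.

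The fly brain sits in a head full of fat body, the tissue that stores fat and glycogen, makes yolk and circulating proteins, and tells the brain about nutrition through secreted peptides. Inside the brain, insulin-producing neurons answer to those peptides, and neuropeptide, monoamine and clock neurons set feeding and sleep. Cells of either tissue answer to food by changing how many ribosomes they build, how they fold proteins, which detoxifying enzymes they make and how they burn or store sugar, fat and amino acids.

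Values are the normalised counts the authors deposited, and a difference is the LPHC mean less the HPLC mean of log2(value + 1), tested with limma over all genes at once. A log2 of 1 is a doubling. A gene was tested if its value reached 10 in at least 5 libraries, which kept 9932 of 12015 genes. Adjusted p of 0.05 (Benjamini-Hochberg over the 9932 genes) was the threshold, and n = 5 libraries per diet throughout. Recovered reads per library numbered 17029184 to 30077141 on LPHC and 13901684 to 25106655 on HPLC. The first principal component, with 58.9% of the variance, separated the diets. The correlation of log2 values between libraries was 0.988 to 0.994 within LPHC, 0.986 to 0.991 within HPLC and 0.964 to 0.976 between the diets.

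The libraries were checked for the tissue on their label and for its neighbours. All 20 neuron markers were detected and took 0.569% to 0.749% of reads on LPHC and 0.531% to 0.690% on HPLC (exact permutation test, two-sided, p = 0.317). RNA of tissues outside the brain was also present. Fat body markers took 1.98% to 2.31% of reads on LPHC and 1.93% to 2.58% on HPLC (exact p = 0.325). The 3 yolk protein genes took 6.75% to 8.62% on LPHC and 12.3% to 15.1% on HPLC, and the 16 photoreceptor markers 5.02% to 6.43% on LPHC and 3.15% to 4.92% on HPLC (exact p = 0.00794 for each, which 5 against 5 libraries cannot undercut, and 0.0238 after adjustment over the 12 marker lists). With the yolk protein genes left out of the total, the photoreceptor share was 5.49% to 6.98% on LPHC and 3.61% to 5.72% on HPLC (exact p = 0.0159, adjusted p = 0.0582). The gut markers and a list named after the male reproductive tract also passed. The second list took 0.193% to 0.245% of reads on LPHC and 0.114% to 0.140% on HPLC (exact p = 0.00794, adjusted p = 0.0238). Of its 13 tested genes 3 were higher, Dup99B (5.06), Acp98AB (3.87) and EbpIII (0.71), and 1, Est-6 (−0.53), was lower. Dup99B and Acp98AB were low, with means of 40.6 and 35.1 on LPHC and 0.259 and 1.62 on HPLC. The whole list summed to 40257 to 50843 on LPHC and 26402 to 33413 on HPLC, so Dup99B and Acp98AB made up little of it. Its members were matched by gene name and the flies were female, so its share is not read as male tissue. In whole tissue, fewer cells of a type and less RNA per cell cannot be told apart.

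Of the 9932 genes, 3133 (31.5%) passed the threshold, 1662 (16.7%) higher and 1471 (14.8%) lower on LPHC. Most differences were small: 25% of all genes lay below log2 −0.19 and 25% above 0.19. Differences of 1.5-fold or more that passed numbered 757 rises and 461 falls, and those of 4-fold or more 127 rises and 19 falls. The large differences were therefore mostly rises, many of them in low genes. Among genes with a mean under 50, 69 rises and 4 falls of 4-fold or more passed, and among those with a mean of 50 or more 58 and 15. A low gene could pass the filter on the libraries of a single diet, so the counts of low genes partly restate the filter. Scaling changed the split of the calls. With every library scaled to the same total of reads the median gene moved by 0.16, to 0.14, and 81.4% of the calls were higher, against 53.0% as deposited; with the yolk protein genes left out of that total the median was 0.05 and 68.2% were higher. Small differences are therefore to be read relative to the median gene of the same scaling.

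**Figure D1:**
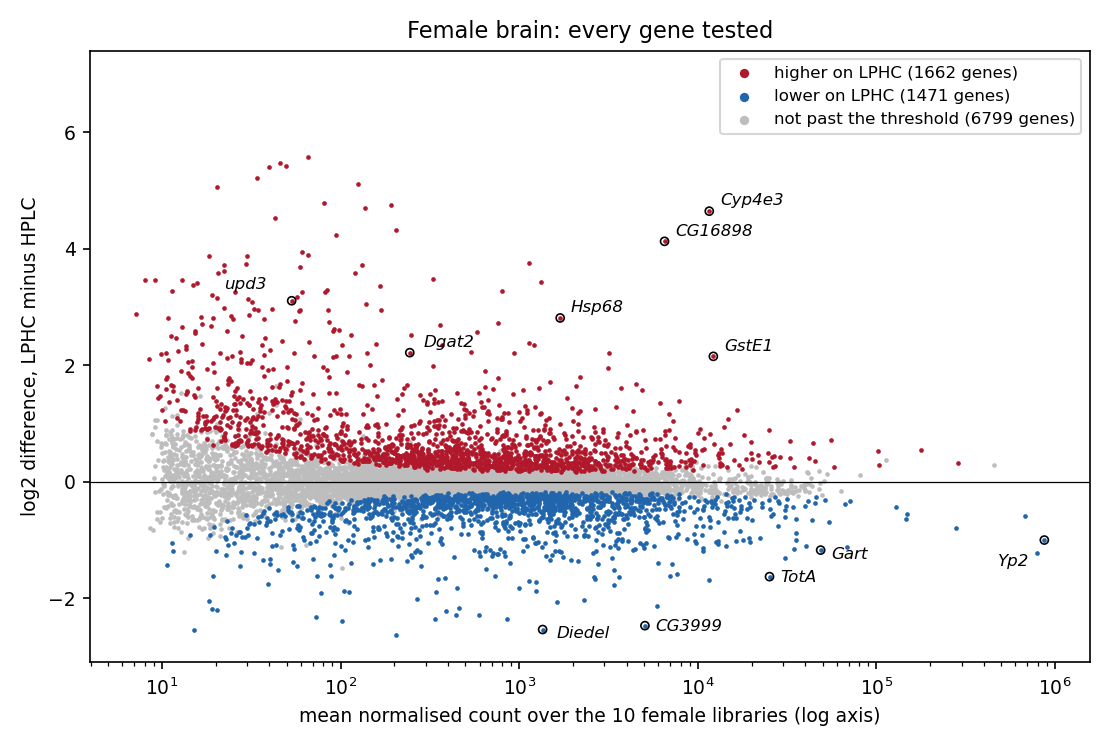
Every gene tested, by its mean normalised count over the 10 libraries (x axis, log scale) and its log2 difference, LPHC minus HPLC (y axis); red and blue points passed an adjusted p of 0.05. The 1662 rises reach higher than the 1471 falls reach down, and named genes are circled.

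Genes were grouped by what their products do, and each group is given as the number of its tested members that passed in each direction. These counts are to be read against the 16.7% of all genes that were higher and the 14.8% that were lower. Counts at the same total of reads are to be read against 32.1% of all genes higher and 7.34% lower. Groups with more than 50% of their members higher were ribosome assembly factors, cytosolic heat shock proteins, cytosolic aminoacyl-tRNA synthetases, the CCT chaperonin, glutathione S-transferases and fatty acid elongases and reductases. The same held for a small list of 5 trypsin-type peptidases and for the fat body markers. Without LPHC replicate 5 the rises were 14 of 35 glutathione S-transferases and 6 of 17 fat body markers. Without LPHC replicate 1 they were 2 of the 5 peptidases. Groups with 50% or more of their members lower were purine synthesis, folate one-carbon enzymes, amino acid catabolism, immune peptides, the yolk proteins and the dpr, DIP and beat surface proteins. With 1 library left out, the fewest falls were 5 of 11 purine genes, 16 of 34 immune peptides, 7 of 21 dpr genes and 4 of 11 DIP genes.

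**Figure D2:**
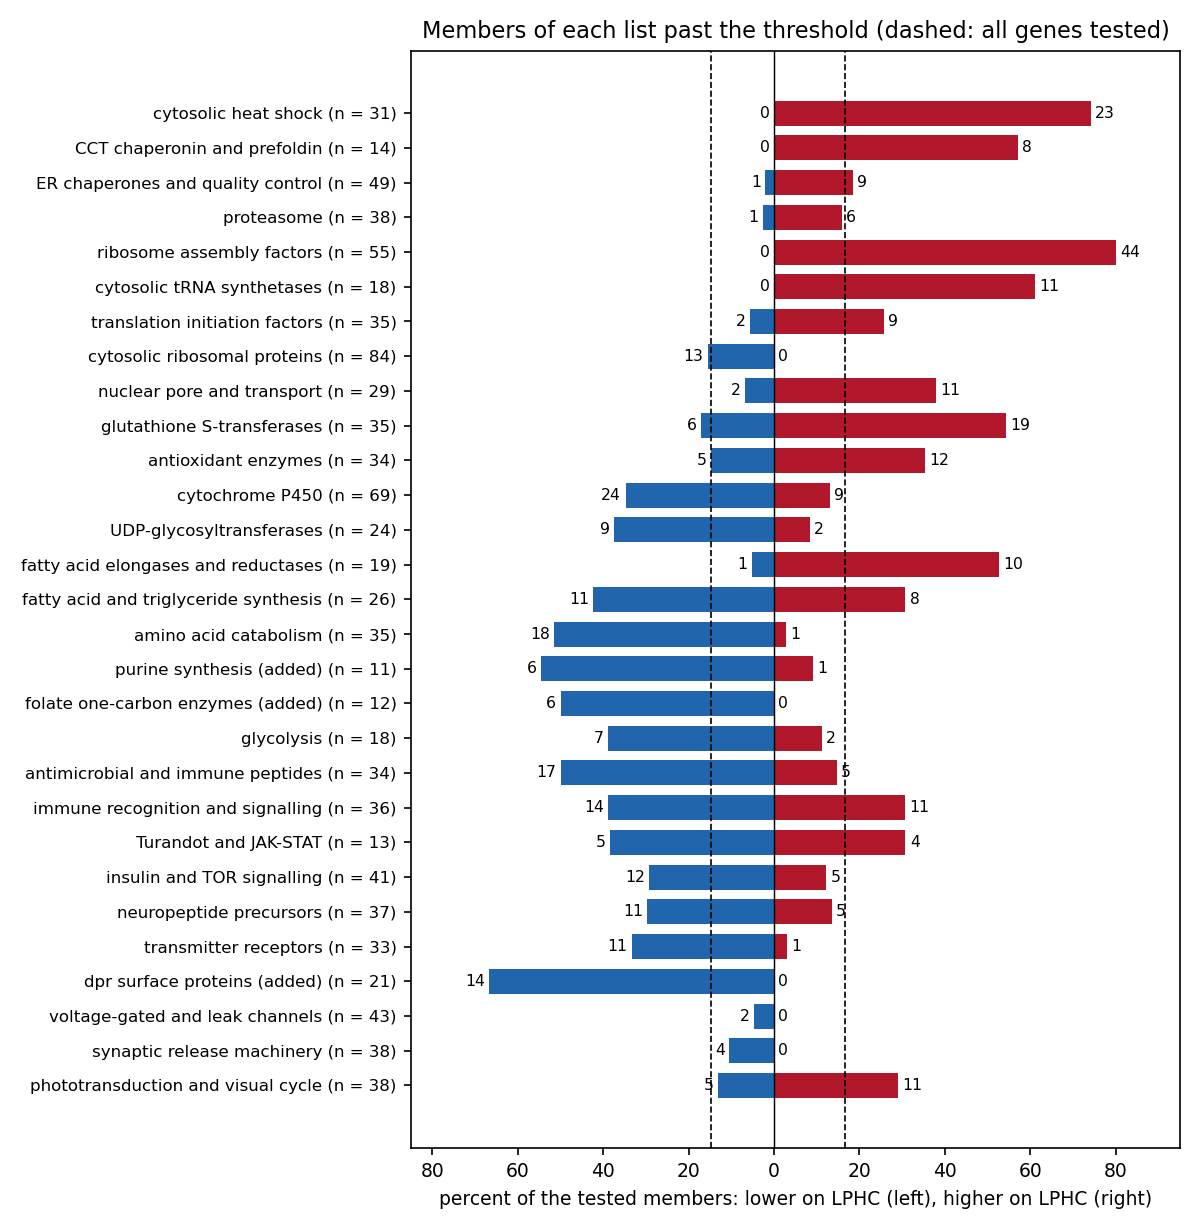
Percent of the tested members of each list that passed the threshold, lower on LPHC to the left and higher to the right, with the number of genes beside each bar and the number tested in brackets. Dashed lines mark all genes tested, 14.8% lower and 16.7% higher; lists marked as added were chosen after values were seen.

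Cytosolic chaperone genes rose. Chaperones hold or refold unfolded proteins, and the heat shock factor Hsf drives many of them in the cytosol when such proteins build up. Of 31 cytosolic heat shock genes 23 were higher and 0 lower, with a median log2 of 0.80. Hsp68, an inducible Hsp70-type chaperone, had 2795, 5398, 2006, 2329.7 and 2406 in the LPHC libraries and 297, 393, 513, 493 and 330.3 in the HPLC libraries. Each LPHC library was above every HPLC library, and LPHC replicate 2 stood well above the others. The difference was log2 2.81 (SE 0.22, adjusted p = 2.02e-07), a 7.37-fold ratio of means. The small chaperone Hsp26 averaged 1307 ± 583 on LPHC and 212 ± 132 on HPLC (SD; log2 2.72), with Hsp27 at 1.41 and Hsp23 at 1.18.

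The rise was not limited to inducible members. The constitutive chaperone Hsc70-4 had 73816, 63726, 74307, 59992 and 72546 on LPHC and 40026, 39515, 46157, 43789 and 39679.8 on HPLC. The groups did not overlap, and the ratio of means was 1.65 (log2 0.72, SE 0.09, adjusted p = 2.17e-05). Its co-chaperone DnaJ-1 rose by 1.44, Hsp83, the fly Hsp90, by 1.23, and the mitochondrial chaperones Hsp60A and Hsc70-5 by 0.88 and 0.74. Hsf itself differed by 0.19. The Hsp70 copies rose by 2.16 (Hsp70Bc) to 3.58 (Hsp70Bb), and since their sequences are nearly identical, reads can be split between them and their separate values are uncertain. Hsp26, Hsc70-4, DnaJ-1 and the other heat shock genes outside the naming rule were picked after their values were seen.

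The CCT chaperonin, a ring that folds actin and tubulin, rose as a whole. All 8 subunits were higher on LPHC, by 0.63 (CCT7) to 0.97 (CCT5), while none of the 6 prefoldin subunits, which hand substrates to the ring, passed the threshold. CCT5 had 1831, 1725, 1961, 1669 and 2042 on LPHC and 781, 878, 1184, 919.9 and 966 on HPLC. Its groups did not overlap (log2 0.97, SE 0.10, adjusted p = 2.9e-06). Of the ring's substrates, 4 of 14 actin and tubulin genes were higher (2 without LPHC replicate 4) and 1 was lower, the cytoplasmic actin gene Act5C at 0.39 and the muscle actin gene Act57B at −0.52.

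Counts for protein quality control in the endoplasmic reticulum and the proteasome depended on the setting. Of 49 endoplasmic reticulum genes 9 were higher and 1 lower (median 0.06), while 14 were higher without HPLC replicate 3 and 28 at the same total of reads, where 32.1% of all genes were. Hsc70-3, the Hsp70 of that compartment, was the largest rise, with 15849, 13911, 16481, 12143 and 16217 on LPHC and 7671, 7640.5, 10721, 7767 and 8727 on HPLC. The groups did not overlap (log2 0.81, SE 0.11, adjusted p = 4.1e-05). The Hsp90 of the compartment, Gp93, stood at 0.48 and the stress sensor gene Atf6 at −0.51. Of 38 proteasome subunits 6 were higher and 1 lower, Prosalpha4 by 0.39; the 6 became 14 without HPLC replicate 3 and 25 at the same total of reads.

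**Figure D3:**
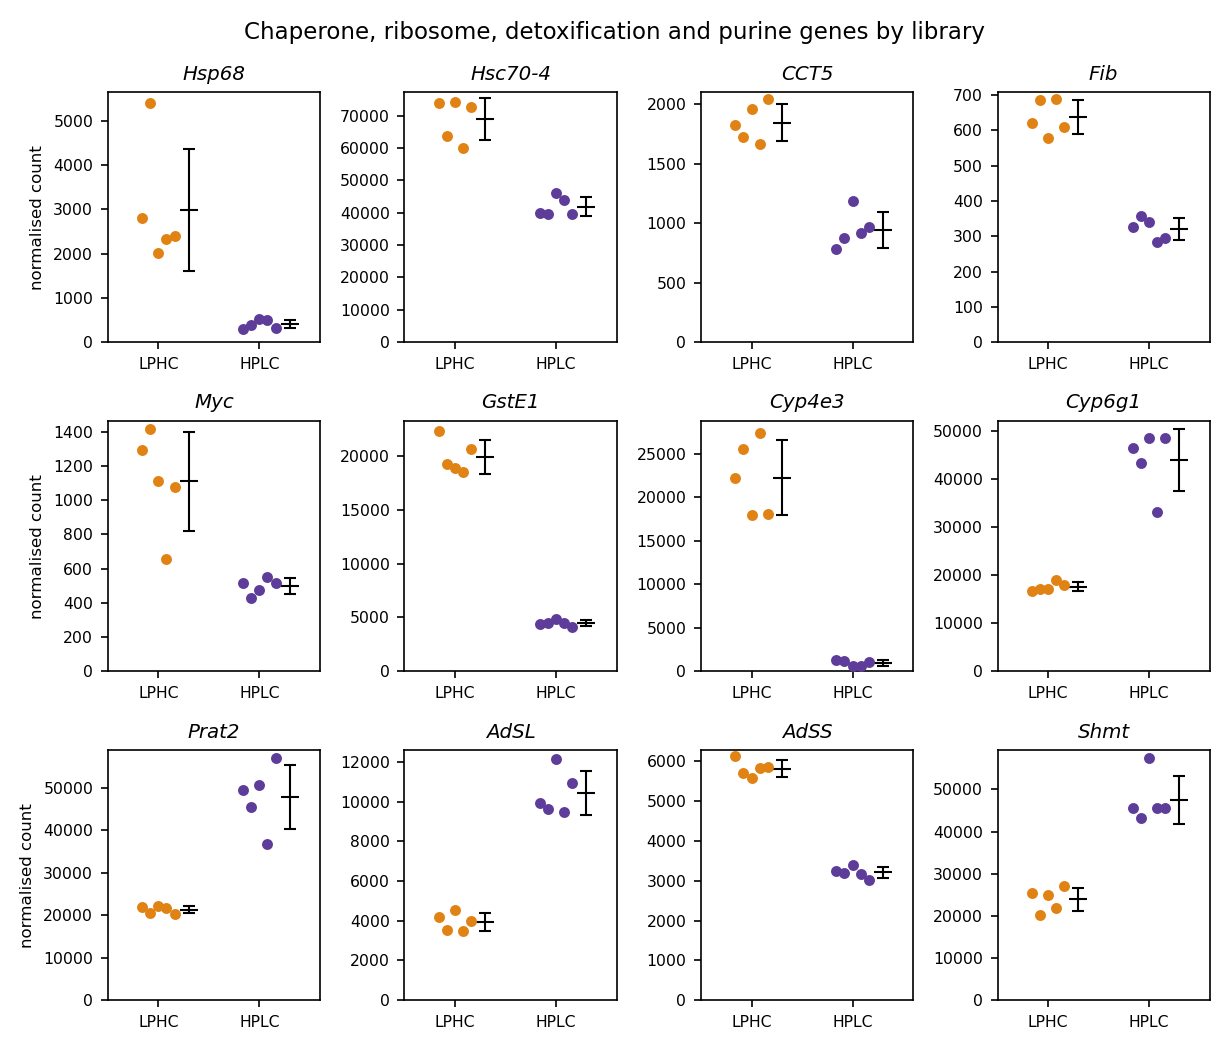
Normalised counts of 12 genes in each library, 5 on LPHC (orange) and 5 on HPLC (purple), with mean and SD in black; every y axis starts at 0. In all 12 genes the libraries of the diets do not overlap, and Cyp6g1, Prat2, AdSL and Shmt were lower on LPHC.

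Genes that build ribosomes rose while the genes of the ribosome's own proteins did not. Assembly factors process ribosomal RNA and fit the proteins to it in the nucleolus. Of 55 assembly factors 44 were higher and 0 lower (median 0.49), and the 2 diets did not overlap for 40 of them, against 22.1% of all genes. Fib, the methyltransferase fibrillarin, had 622, 685, 580.0, 689 and 611 on LPHC and 327, 357, 339.9, 284 and 294 on HPLC. The groups did not overlap (log2 0.99, SE 0.09, adjusted p = 4.49e-07). The other core members of the same nucleolar particle stood at 1.04 (nop5) and 0.71 (Nop56), and eIF6, which keeps unfinished subunits apart, at 0.84. Of 84 cytosolic ribosomal protein genes 0 were higher and 13 lower (median −0.15), RpS20 by −0.50 and RpL3 by −0.34. At the same total of reads this list's median was 0.02, where that of all genes was 0.14, with 3 members higher and 3 lower. The count of 13 was 8 without LPHC replicate 2 and 25 without HPLC replicate 4.

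The machinery around the ribosome was partly higher. Of 22 subunits and factors of RNA polymerases I and III, which transcribe ribosomal and transfer RNA, 4 were higher and 1 lower, Polr1A, the largest subunit of polymerase I, at 0.59. Of 35 translation initiation factors 9 were higher and 2 lower, eIF2beta at 0.79. Among aminoacyl-tRNA synthetases, which load transfer RNAs with amino acids, 11 of 18 cytosolic genes were higher and 0 lower (median 0.29), while 0 of 15 mitochondrial ones were higher and 1 was lower. AspRS, the aspartyl enzyme, had 615, 649, 645, 552 and 679 on LPHC and 311, 333.8, 449, 290.2 and 329 on HPLC. HPLC replicate 3 was the highest of its group and still below every LPHC library (log2 0.89, SE 0.11, adjusted p = 1.52e-05). Mitochondrial ribosomal proteins were 3 of 73 higher and 0 lower.

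Myc, the transcription factor that drives ribosome building in growing fly cells, rose as well. It had 1296, 1415, 1115, 655 and 1076 on LPHC and 516, 428, 473, 551 and 516 on HPLC. LPHC replicate 4 was the lowest of its group and lay nearest to the HPLC libraries, without overlap (log2 1.12, SE 0.16, adjusted p = 7.39e-05). Of 29 nuclear pore and transport genes 11 were higher and 2 lower. Nup62, a channel protein of the pore, had 526, 450.5, 522, 551 and 559 on LPHC and 261, 329, 321, 304 and 294 on HPLC, with no overlap (log2 0.79, SE 0.09, adjusted p = 5.95e-06), and the pore gene Nup44A went the other way, at −0.71.

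Detoxification enzymes split by family. Glutathione S-transferases couple glutathione to reactive compounds, and 19 of 35 were higher and 6 lower (median 0.33). The 19 became 14 without LPHC replicate 5, and the 6 became 3 without LPHC replicate 2 and 3 at the same total of reads. GstE1 had 22368, 19254, 18884, 18540.4 and 20717 on LPHC and 4392, 4507, 4826, 4501 and 4153 on HPLC. The spread within each diet was small beside the 4.46-fold ratio of means (log2 2.15, SE 0.07, adjusted p = 7.9e-11). GstD5 had 448, 363, 389.9, 326 and 422 on LPHC and 21.4, 29.2, 9.44, 24.6 and 14.2 on HPLC (log2 4.32, SE 0.23), and GstD1, picked after its values were seen, stood at 0.89. The members of the GstD cluster lie side by side and resemble each other, so reads can be split between them. The zeta-class genes GstZ2 (−1.05) and GstZ1 (−0.51), whose enzymes act in tyrosine breakdown, fell.

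Cytochromes P450 went mostly the other way. Of 69 tested, 9 were higher and 24 lower, and of 24 UDP-glycosyltransferases 2 were higher and 9 lower. Cyp6g1, known for insecticide resistance, had 16639, 17218, 17185, 19074 and 17984 on LPHC and 46420.4, 43276, 48499.6, 33149 and 48638 on HPLC. The groups did not overlap and the level was 2.50-fold lower on LPHC (log2 −1.31, SE 0.10, adjusted p = 1.75e-07). Cyp6w1 (−1.10), Cyp28d1 (−1.02) and Ugt35C1 (−1.62) fell too. Cyp4e3, among the 9 rises, had 22244, 25599, 17928, 27446 and 18053 on LPHC and 1264, 1178, 595, 577 and 999 on HPLC, a 24.1-fold ratio of means. At the same total of reads 21 P450 genes were higher and 20 lower, and 9 and 8 of the UDP-glycosyltransferases; without HPLC replicate 3 the higher ones of the second family numbered 5.

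Antioxidant genes rose in part. Of 34, 12 were higher and 5 lower, the 5 becoming 3 without LPHC replicate 2. Gclc, the catalytic subunit of the enzyme that commits to glutathione synthesis, had 5522, 5960.0, 5062, 4728 and 5447 on LPHC and 2790.2, 2836, 2773, 2286 and 2899 on HPLC, with no overlap (log2 0.98, SE 0.08, adjusted p = 4.23e-07). Trxr-1, thioredoxin reductase, stood at 0.81, ref(2)P, the fly p62 that tags cargo for autophagy, at 0.90, and the ferritin genes Fer1HCH and Fer2LCH at 0.44 and 0.42. Among export pumps, Mdr49 (1.10) and Mdr65 (0.62) rose and Mdr50 (−0.54) fell.

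Some of the most certain differences were in genes with no role stated here. CG16898 had the smallest p of all genes, with 14320.4, 12202, 11169, 12067 and 11828 on LPHC and 690.2, 772, 764, 543 and 764 on HPLC. The ratio of means was 17.4 (log2 4.13, SE 0.10, adjusted p = 1.1e-12). CG9733 stood at 3.43, CG14961 at 3.28, CG7675 at 1.65 and Root, which encodes the rootlet protein of cilia, at 2.56. On the low side CG10962 had 1848, 1949, 2368, 2569.5 and 2204 on LPHC and 9503, 8954, 11638, 8269 and 9437 on HPLC. These groups did not overlap either (log2 −2.13, SE 0.10, adjusted p = 2.02e-09), and CG11425 and olf186-M stood at −1.70 and −1.34.

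Enzymes that make purines and the folate-bound carbon they need fell together on LPHC; both lists were drawn up after values were seen. Cells build the purine ring step by step on a ribose, with carbon units from folate and a nitrogen from glycine. Of 11 purine synthesis genes 6 were lower and 1 higher (median −0.30). Prat2, whose enzyme takes the first committed step, had 21825, 20504, 22224, 21638 and 20302 on LPHC and 49475, 45528, 50688, 36645 and 57045 on HPLC. The LPHC libraries lay within a narrow range below all HPLC libraries (log2 −1.15, SE 0.10, adjusted p = 6.93e-07). Gart, which encodes a single protein for several middle steps, had 32624, 27754, 36775, 22904 and 29694 on LPHC and 73477, 61829.5, 68078, 51644 and 82294 on HPLC, 2.25-fold lower on LPHC.

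The last steps of the purine pathway did not move as one. AdSL, adenylosuccinate lyase, had 4191, 3552, 4534, 3464 and 3978 on LPHC and 9955, 9624, 12169.5, 9467 and 10967 on HPLC (log2 −1.40, SE 0.09, adjusted p = 3.65e-08). AdSS, adenylosuccinate synthetase, whose product AdSL cleaves to AMP, had 6131, 5710.1, 5573, 5823 and 5859 on LPHC and 3241, 3204, 3402, 3183 and 3015 on HPLC (log2 0.86, SE 0.06, adjusted p = 8.4e-08). The groups did not overlap in either gene, and the 2 enzymes moved in opposite directions. Prps, which supplies the activated ribose, stood at −0.97 and Paics at −0.66, and Prat, Pfas, ras and bur did not pass the threshold.

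Of 12 folate one-carbon enzymes 6 were lower and 0 higher (median −0.56). Shmt, which takes a carbon unit from serine and leaves glycine, had 25344, 20280.0, 24914, 21770.3 and 27191 on LPHC and 45487, 43136, 57506, 45574 and 45542 on HPLC. All LPHC libraries were below all HPLC libraries (log2 −0.99, SE 0.10, adjusted p = 2.88e-06). The gene pug, for the enzyme that interconverts folate forms, had 41796, 41873, 47976, 39123 and 43903 on LPHC and 94351, 91004, 106093, 71848 and 108913 on HPLC, 2.20-fold lower on LPHC (pug, log2 −1.13). CG3999, annotated as a glycine decarboxylase, fell the most, with 1445, 1372, 1885, 1226 and 1818 on LPHC and 7921, 7637, 10767, 7066 and 9433 on HPLC (log2 −2.47, SE 0.13, adjusted p = 4.55e-09). Sardh, which frees a carbon unit from sarcosine, stood at −2.07, Mthfs at −1.13 and Nmdmc at −0.78.

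Amino acid breakdown fell too, in a list that shares at least CG3999 with the folate list. Of 35 catabolism genes 18 were lower and 1 higher (median −0.33), and 16 were lower with libraries at the same total. The tyrosine pathway was lower at several steps, Hpd at −0.97, hgo at −1.24 and Faa at −0.62. The aminotransferase genes Got1 and Got2 stood at −0.55 and −0.61, and the lysine enzyme gene LKRSDH at −0.48. CG8745 had 1487, 1398, 1497, 1381 and 1720.0 on LPHC and 4503, 3601, 4528, 3468 and 3958 on HPLC, with no overlap (log2 −1.42, SE 0.09, adjusted p = 2.88e-08). Of 20 genes of serine, glycine and asparagine synthesis and their regulator ATF4, 4 were higher and 8 lower, or 9 and 6 at the same total of reads, and trbl, a pseudokinase that ATF4 can induce, stood at 0.77. Of 26 amino acid transporters 8 were higher and 3 lower, the 3 becoming 7 without HPLC replicate 3, NAAT1 at 0.77 and path at −0.51.

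Sugar metabolism was lower at several steps. Of 18 glycolysis and gluconeogenesis genes 7 were lower and 2 higher, against 5 lower and 7 higher at the same total of reads. Ldh, lactate dehydrogenase, had 381, 422, 381, 503 and 539 on LPHC and 878, 782, 862, 770.4 and 702 on HPLC, with no overlap (log2 −0.85, SE 0.11, adjusted p = 1.89e-05), and the hexokinase gene Hex-C stood at −0.82. Pepck2, a phosphoenolpyruvate carboxykinase, rose, with 931, 1074, 789.7, 1056 and 983 on LPHC and 452, 356, 298, 295 and 440.4 on HPLC (log2 1.40, SE 0.13, adjusted p = 8.14e-07). Of 11 trehalose and glycogen genes 5 were lower, UGP at −0.69 and the trehalose transporter gene Tret1-1 at −0.54, and the neighbouring transporter Tret1-2 rose by 0.86. The salivary and gut enzymes Amy-p (−1.04) and Mal-B2 (−1.06), which digest starch and maltose, were lower. The gut markers took 0.144% to 0.174% of reads on LPHC and 0.203% to 0.266% on HPLC, a share made up mostly by the amylase genes themselves; of the other gut markers Jon74E (1.26) and Mal-A1 (0.46) were higher.

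The gene sug, for a transcription factor that sugar induces, had 2210.4, 1970.5, 1652, 2155 and 1764 on LPHC and 772, 827, 500.4, 617 and 523 on HPLC. Every LPHC library was above every HPLC library (sug, log2 1.61, SE 0.13, adjusted p = 3.53e-07). Mondo, a sugar sensor upstream of it, stood at −0.27, and the sorbitol dehydrogenase genes Sodh-1 and Sodh-2 at −1.19 and −1.04. Of 24 Krebs cycle genes 1 was higher and 3 lower, and of 72 nuclear genes of the respiratory chain 3 were higher and 7 lower; at the same total of reads the counts were 7 and 0, and 9 and 0. The 7 falls of the respiratory chain were 0 without LPHC replicate 2 and 20 without LPHC replicate 4, and its 3 rises were in genes with few reads, ATPsynbetaL, Cyt-c1L and ND-49L, at 2.47, 1.67 and 1.62.

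Lipid genes moved in both directions, by step. Of 26 genes of fatty acid and triglyceride synthesis 8 were higher and 11 lower, or 9 and 8 at the same total of reads. The early steps were lower: ACC, which makes malonyl-CoA, had 19909.6, 28494, 30579, 21867 and 24841 on LPHC and 44143, 42688, 50310.3, 39448 and 54322 on HPLC, with no overlap (log2 −0.89, SE 0.12, adjusted p = 5.64e-05), and ATPCL, FASN1 and Desat1 stood at −0.58, −0.43 and −0.55. The first acyltransferase of glycerolipid synthesis, mino, stood at −0.97. Dgat2, which adds the last fatty acid of a triglyceride, had 347, 456, 389, 397 and 413 on LPHC and 69.0, 82.0, 137, 78.3 and 72.5 on HPLC. HPLC replicate 3 was above the rest of its group and below all LPHC libraries (log2 2.22, SE 0.16, adjusted p = 7.66e-08). Agpat4 rose by 1.49 and the lipid droplet protein gene Lsd-1 by 0.65.

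Of 19 fatty acid elongases and reductases, which make long chains and fatty alcohols for cuticle lipids and pheromones, 10 were higher and 1 lower (median 0.62). CG12268, a fatty acyl-CoA reductase gene, had 1603, 1767, 1419.9, 1242 and 1663 on LPHC and 353, 363, 268, 295 and 387 on HPLC, with no overlap (log2 2.21, SE 0.12, adjusted p = 3.77e-09). The elongase genes Elovl7 and CG18609 stood at 1.04 and 3.26. Markers of trachea and epidermis took 0.0605% to 0.0915% of reads on LPHC and 0.0538% to 0.0654% on HPLC (exact permutation p = 0.0635), and their part here was not tested. Among the 30 genes that free and oxidise fatty acids 7 were higher and 4 lower, Mtpalpha of the beta-oxidation complex at 0.50 and the lipase gene mag, with 95.9, 44.0, 36.8, 27.6 and 43.0 on LPHC and 196, 185, 154, 113 and 223 on HPLC, at −1.89. LPHC replicate 1 was the highest of its group for mag and stayed below every HPLC library.

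**Figure D4:**
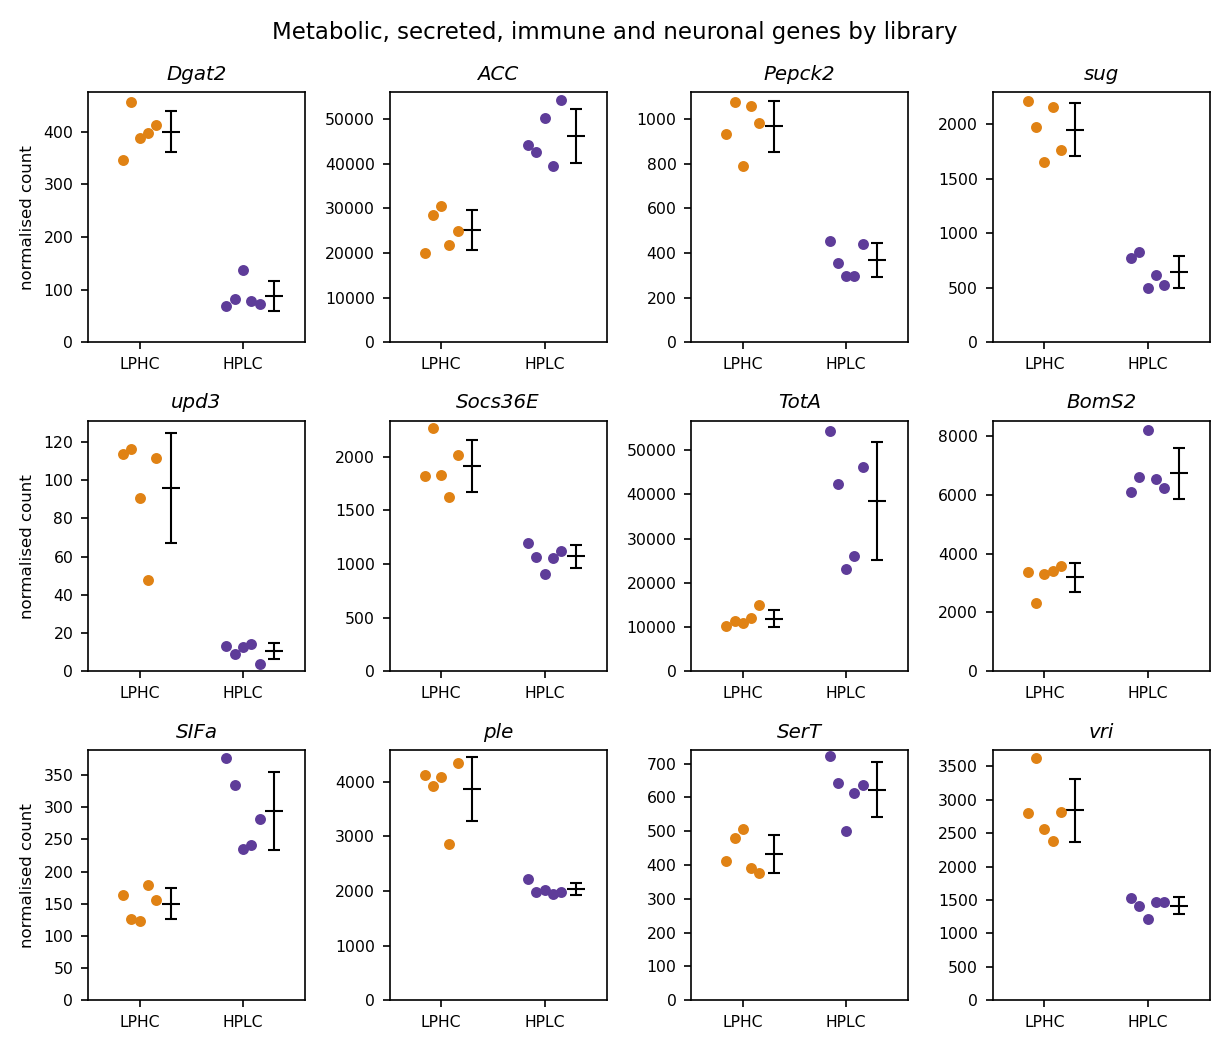
Normalised counts of 12 genes in each library, 5 on LPHC (orange) and 5 on HPLC (purple), with mean and SD in black; every y axis starts at 0. SerT is the only gene of the 12 in which a library of one diet lies within the range of the other.

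Nutrient signals from the fat body and the brain changed in level. Among 41 insulin and TOR genes 5 were higher and 12 lower. At the same total of reads 13 were higher and 5 lower, where 32.1% and 7.34% of all genes were. Ilp5, an insulin-like peptide of the insulin-producing neurons, had 467, 447, 527, 613 and 509 on LPHC and 884, 883, 796, 747 and 738 on HPLC, with no overlap (log2 −0.66, SE 0.09, adjusted p = 6.12e-05); Ilp2 of the same cells stood at −0.35. ImpL2, which binds insulin-like peptides, had 1659.8, 1683, 1204, 1689 and 1475 on LPHC and 782, 729, 552, 688 and 644 on HPLC (log2 1.18, SE 0.11, adjusted p = 9.64e-07). CCHa2, a peptide the fat body sends to those neurons, stood at 0.54, and foxo, the transcription factor that insulin restrains, at −0.61. Of 23 autophagy genes 1 was higher and 6 lower, or 6 and 4 at the same total of reads, and of 18 subunits of the vacuolar proton pump, which acidifies lysosomes, 4 were higher and 0 lower.

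The cytokine genes upd2 and upd3, ligands of the JAK-STAT pathway, rose, at low levels. The gene upd3 had 114, 116, 90.7, 47.5 and 112 on LPHC and 13.1, 8.99, 12.6, 14.1 and 3.89 on HPLC, and upd2 had 139.8, 106, 92.0, 42.9 and 144 on LPHC and 14.8, 19.1, 9.44, 7.91 and 10.4 on HPLC. In both genes LPHC replicate 4 was the lowest of its group and above every HPLC library (upd3, log2 3.11, SE 0.32, adjusted p = 3.03e-06; upd2, log2 2.94, SE 0.31, adjusted p = 4.08e-06). Socs36E, a target of the pathway that feeds back on it, had 1823, 2264, 1832, 1619.5 and 2012 on LPHC and 1199.6, 1067, 903, 1054 and 1122 on HPLC, with no overlap (log2 0.83, SE 0.10, adjusted p = 8.83e-06), and the receptor gene dome stood at 0.57.

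The Turandot genes, humoral stress proteins of the fat body that the same pathway can induce, went down. TotA had 10316, 11452, 10844, 11929 and 15040.0 on LPHC and 54397, 42432, 23207, 26171 and 46157 on HPLC. The HPLC libraries spread over more than a factor of 2, and all of them were above every LPHC library (log2 −1.63, SE 0.20, adjusted p = 1.68e-05). TotC (−1.68) and TotM (−1.58) fell alike. Over the 13 genes of the list 4 were higher and 5 lower, the 4 being upd2, upd3, Socs36E and dome.

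Immune peptides fell mostly in the bomanin family. Bomanins are short peptides that the Toll pathway induces, and of the 34 immune peptide genes 17 were lower and 5 higher (median −0.56). By gene name, 11 of 12 Bom genes were lower and 0 higher. BomS2 had 3356, 2314, 3305, 3395 and 3591 on LPHC and 6088, 6589.6, 8211, 6525 and 6218 on HPLC, with no overlap (log2 −1.08, SE 0.12, adjusted p = 4.1e-06). The bomanin genes resemble each other, so reads can be split between them. Drs, drosomycin, an antifungal peptide that Toll also induces, rose, with 1455, 489, 589, 673 and 1271 on LPHC and 159, 157, 142, 226 and 196 on HPLC (log2 2.22, SE 0.25, adjusted p = 8.36e-06), and so did AttC (0.80) and CecB (3.09). CecB was a low gene, with means of 56.9 on LPHC and 6.74 on HPLC, and could pass the filter through LPHC alone.

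Of 36 immune recognition and signalling genes 14 were lower and 11 higher, or 12 and 14 at the same total of reads. The recognition proteins GNBP-like3 (−1.27) and GNBP3 (−0.64) and the Toll-activating protease gene SPE (−0.71) fell, while the Toll ligand gene spz (0.89) and the inhibitor gene cact (0.47), itself a Toll target, rose. Of the transcription factors, Dif stood at −0.63 and dl at 0.39. The haemocyte markers, of the blood cells that also make such proteins, took 0.0999% to 0.119% of reads on LPHC and 0.0836% to 0.107% on HPLC (exact permutation test p = 0.0794, adjusted p = 0.136). Of the 17 fat body markers 9 were higher and 4 lower, the 9 becoming 6 without LPHC replicate 5. The part of either tissue in these results was not tested.

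Few genes of neuronal excitability and release passed the threshold. Of 43 voltage-gated and leak channels 0 were higher and 2 lower, cac, the presynaptic calcium channel, by −0.31. Of 38 genes of the synaptic release machinery 0 were higher and 4 lower, among them Syt7 (−0.40) and the acetylcholine vesicle transporter VAChT (−0.31). Without HPLC replicate 3 the lower channels numbered 6 and the lower release genes 10, and at the same total of reads 0 and 1. Of 33 transmitter receptors 1 was higher and 11 lower, the count of 11 being 4 without LPHC replicate 5, 19 without HPLC replicate 3 and 1 with libraries at the same total. Grd, a subunit of the GABA receptor type, had 151, 141, 168, 116 and 122 on LPHC and 230.1, 234, 251, 264 and 278 on HPLC. These groups did not overlap (log2 −0.85, SE 0.11, adjusted p = 2.88e-05; −0.69 at the same total).

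Neuropeptides showed larger single changes. Of 37 precursor genes 5 were higher and 11 lower, or 7 and 4 at the same total of reads, and of 38 receptor genes 1 was higher and 7 lower, the 7 becoming 13 without HPLC replicate 3. SIFa, a peptide of a few large median neurons that bears on courtship, feeding and sleep, had 164, 127, 123, 179 and 156.4 on LPHC and 376, 335, 235, 241 and 282 on HPLC. The groups did not overlap and the level was 1.96-fold lower on LPHC (log2 −0.96, SE 0.14, adjusted p = 0.000112). Nplp3 stood at −0.92, Dh44, a diuretic hormone that also signals nutrients, at −0.37, and Crz, corazonin, at 0.31. The receptor that rose was PK1-R, a pyrokinin receptor, with 85.2, 107, 87.1, 59.8 and 62.2 on LPHC and 27.9, 19.1, 33.6, 28.1 and 24.6 on HPLC (log2 1.54, SE 0.20, adjusted p = 2.37e-05). The receptor of the clock peptide PDF, Pdfr, stood at −0.53.

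Of 34 monoamine genes 3 were higher and 9 lower, the 9 becoming 6 without LPHC replicate 5, 17 without HPLC replicate 3 and 4 at the same total of reads. The gene ple, for tyrosine hydroxylase, which starts dopamine synthesis in neurons and in cuticle, had 4131, 3920.1, 4084, 2856 and 4349 on LPHC and 2227, 1988, 2025, 1943 and 1977 on HPLC (ple, log2 0.92, SE 0.10, adjusted p = 5.64e-06). LPHC replicate 4 was the lowest of its group and above every HPLC library. The other rises, b (0.86) and t (0.37), are genes of beta-alanine and of its release from conjugates with dopamine and histamine. Ddc, which acts after ple, fell (−0.40). Some serotonin genes fell: SerT, for its transporter, had 411, 479, 506, 391 and 376 on LPHC and 723, 642, 499, 614 and 637 on HPLC. HPLC replicate 3 lay within the LPHC range (log2 −0.52, SE 0.11, adjusted p = 0.00165), and the receptor genes 5-HT1B and 5-HT2A stood at −0.63 and −0.47.

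Few sleep genes passed the threshold. Of 46 genes known to set sleep amount or sleep need 3 were higher and 3 lower, the lower ones becoming 9 without HPLC replicate 3. Gat, the glial GABA transporter, had 298, 276, 262, 332 and 315 on LPHC and 403, 396, 589, 497 and 381 on HPLC, with no overlap (log2 −0.59, SE 0.12, adjusted p = 0.00131). Pka-C1, the kinase subunit that cAMP frees, stood at −0.66, while nkt stood at 0.70. Of 28 clock genes 3 were higher and 5 lower, or 6 and 2 at the same total of reads. The gene vri, for a repressor that the clock drives, had 2811, 3626, 2568, 2389 and 2818 on LPHC and 1528, 1414, 1209, 1463 and 1468 on HPLC, with no overlap (vri, log2 0.99, SE 0.10, adjusted p = 3e-06). Takeout (to), a clock output of the fat body and head that answers to starvation, stood at 0.95, and Pdp1, which opposes vri, at −0.21. The labels give no hour of collection.

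Of 20 genes that neuronal activity induces 8 were higher and 2 lower, with 5 higher without LPHC replicate 1. Arc2, a capsid-forming relative of the synaptic gene Arc, had 521, 501, 450.01, 468 and 585 on LPHC and 210.3, 183, 172, 238 and 172 on HPLC, with no overlap (log2 1.37, SE 0.11, adjusted p = 1.58e-07). The nuclear receptor gene Hr38 stood at 0.82 and the immediate early gene kay, the fly Fos, at 0.45.

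Several families of surface proteins that neurons use to find partners were lower by small amounts. The dpr and DIP proteins bind each other across synapses, and the beat proteins bind the side proteins; the 4 lists were drawn up after values were seen. Of 21 dpr genes 14 were lower and 0 higher, with log2 values from −0.41 to −0.04. Of 13 beat genes 10 were lower and 0 higher (−0.43 to −0.09), and of 11 DIP genes 8 were lower and 1 higher (−0.49 to 1.28). Of 8 side genes 0 passed (−0.28 to −0.15), and 4 were lower without HPLC replicate 3. The member of highest mean, dpr12, had 2437, 2423, 2380.0, 2221 and 1972 on LPHC and 2823, 2838, 2466, 3107 and 2783 on HPLC. All LPHC libraries were below all HPLC libraries (dpr12, log2 −0.29, SE 0.08, adjusted p = 0.0109). At the same total of reads 0 dpr genes, 1 beat gene and 2 DIP genes were lower, the medians being −0.11, −0.15 and −0.12 where that of all genes was 0.14. The fall of these families is therefore one relative to the median gene, and without LPHC replicate 5 the lower dpr genes numbered 7 and the lower DIP genes 4.

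Eye genes also rose in part, but they overlap the photoreceptor markers given above, among them Rh5, Rh6 and Arr2. Their rise is therefore no separate result from that share, whose call depended on the total used. Of 38 phototransduction genes 11 were higher and 5 lower; 17 were higher without HPLC replicate 3, and 21 were higher and 0 lower at the same total of reads. Rh6, an opsin of the inner photoreceptors, had 8745, 9847, 9021, 10420.5 and 7612 on LPHC and 3752, 5203, 6599, 8864 and 4061 on HPLC. The groups overlapped, since HPLC replicate 4 lay within the LPHC range (log2 0.75, SE 0.19, adjusted p = 0.00642). Rh5 of the same cell class stood at 1.04, Rh2, the opsin of the ocelli, at 1.32, and Arr2, which ends the light response, at 0.54. The retina is joined to the brain, and the part of uneven dissection in these values was not tested.

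The share of genes that differed depended on their level. Genes were cut into 10 classes of equal size by mean level. In the class with the lowest mean 20.6% were higher and 3.42% lower (median 0.15), and in the class with the highest mean 15.8% were higher and 25.3% lower (median −0.09). Low genes may have been tested because they were high on 1 diet. The shares of low genes, here and by distance below, therefore partly restate the filter. At the same total of reads the lowest class had 25.1% higher and 2.11% lower, and the highest class 28.7% higher and 15.1% lower, so that the order of the median held (0.30 and 0.07) and the split of the highest class did not. Among low genes the share of rises was also set beside the distance to the gene before them, and it did not fall evenly with that distance. Of 386 genes with a mean under 50 and a gene on the same strand that ends less than 1000 bases upstream in the Ensembl annotation, 29.3% were higher and 9.59% were at least 4-fold higher. Of 383 such low genes with a wide gap before them, 5000 bases or more, 18.5% were higher and 3.13% at least 4-fold higher. Of the 316 with a gap between these, 17.1% were higher and 5.06% at least 4-fold higher, and of the 84 that overlap the gene before them 21.4% and 1.19%. Of the 142 with no gap found the shares were 16.2% and 2.11%, and of all 1311 genes with a mean under 50 they were 21.3% and 5.26%. Where the near neighbour had a mean of 1000 or more, 41.4% of 116 were higher, and of the other 270, whose neighbour had less or was not in the table, 24.1%. Transcription that runs on from the neighbour was not tested, and the strandedness of the libraries is not given in the sources used here.

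**Figure D5:**
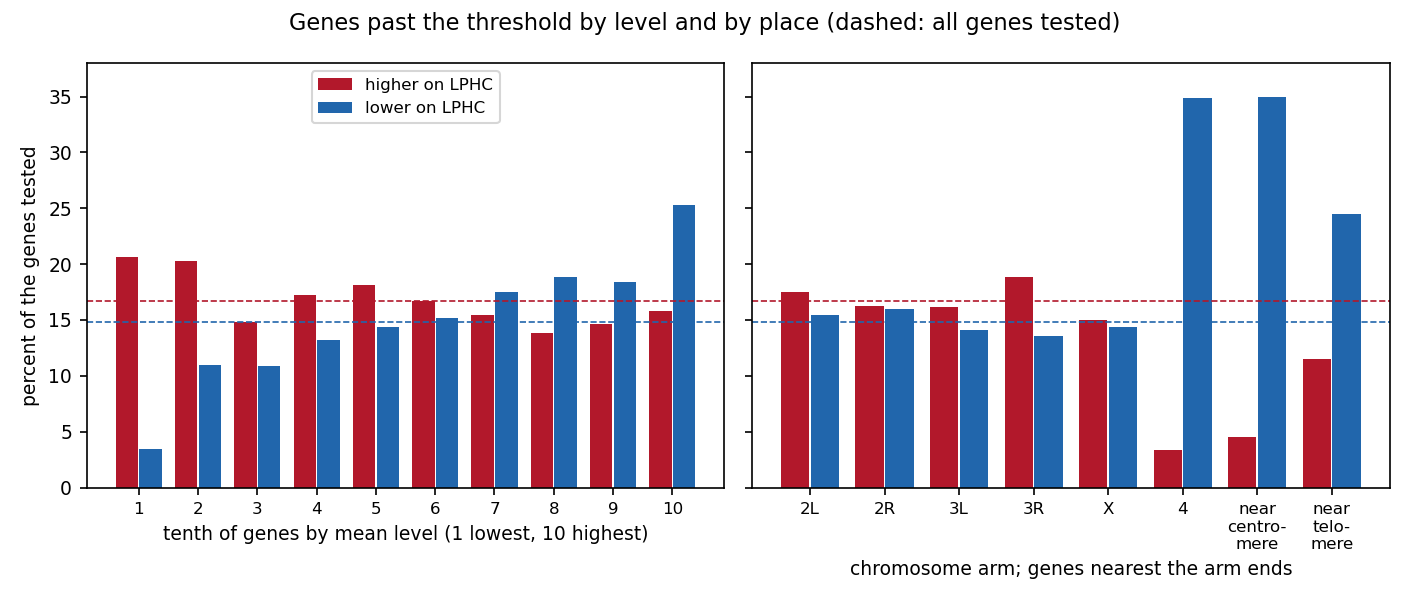
Percent of the genes tested that were higher (red) or lower (blue) on LPHC, by class of mean level, 10 classes from low to high (left) and by chromosome arm, with the 40 tested genes nearest each end of the 5 large arms pooled (right). Dashed lines are all genes tested; chromosome 4 had 34.8% lower and 3.37% higher.

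The calls were also uneven along the chromosomes. Chromosome 4, a small chromosome packed largely as heterochromatin, had 3 of 89 genes higher and 31 lower (34.8%; median −0.20), whereas the 5 large arms had 13.6% (3R) to 16.02% (2R) lower. Pur-alpha, a nucleic acid-binding protein gene on it that was picked after its values were seen, had 3971, 3924, 3390.4, 3889 and 3672 on LPHC and 5742, 4698, 5135, 5132 and 5179.7 on HPLC, with no overlap (log2 −0.46, SE 0.07, adjusted p = 0.000184). Of the 200 tested genes nearest the centromeres of the 5 arms, 40 each, 9 were higher and 70 lower (median −0.18), and on 2R 0 were higher and 25 lower. At the telomere ends 23 of 200 were higher and 49 lower. At the same total of reads chromosome 4 had 7 higher and 11 lower with a median of −0.04, and the centromere ends 27 higher and 26 lower with a median of −0.01, beside 0.14 for all genes. With edgeR the lower counts were 28 and 65.

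The female difference was also set against that of the males, whose LPHC (0:1 at 180 g/L) and HPLC (1:1 at 180 g/L) were other recipes, so that sex and recipe cannot be told apart. In the fit over both tables, 5106 of 9766 genes (52.3%) had a female difference unlike the male one, 2889 with the female value above and 2217 below. Of 1588 female rises tested in both, 244 (15.4%) were higher and 657 (41.4%) lower in males, beside 27.7% and 30.5% of all 9766 genes. Of 1465 female falls 706 (48.2%) were also lower in males and 399 (27.2%) higher, the second share being near that of all genes. CG16898 stood at 4.13 in females and −4.91 in males. The purine gene Gart stood at −1.17 in females and −5.44 in males, and the difference of 4.26 passed (SE 0.21, adjusted p = 1.37e-13). Root was high in both, at 2.56 in females and 2.72 in males, with a difference of −0.16 (SE 0.22, adjusted p = 0.563).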

How the data were processed

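Per the labels' protocols, brains were dissected and frozen, and their RNA went into Illumina libraries. HISAT2 is the aligner that the submitters' processing notes name; version, build, counter and strand setting: not given in the sources used here. The authors deposited 1 table per sex of normalised read signal per gene, whose name states DESeq2 normalisation and removal of long non-coding RNA. Divided by the worth of 1 read in its library, every value came out whole to within 0.01, so that read counts could be recovered. Libraries were grouped by the labels. The main test was limma 3.58.1 with an intensity trend in R 4.3.3 on log2(value + 1), two-sided, for genes that reached 10 in 5 or more libraries; p-values were adjusted after Benjamini and Hochberg, and 0.05 was the threshold. It was tested on simulated data. edgeR 4.0.16 and DESeq2 1.42.0 on the recovered reads were alternatives. Summaries used Python 3.11.15, pandas 2.3.3 and SciPy 1.17.1; shares of reads in marker lists were compared by exact permutation tests over libraries. Because the sexes were normalised separately, the fit over both tables compares differences between diets and never levels. Places and distances come from the Ensembl annotation, and 11988 of 12015 gene names were matched; no sequence was used here.

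The comparison, the 56 lists, 12 marker lists and tests were chosen with earlier results of these data known, and a further 8 lists (purine synthesis, folate enzymes, dpr, DIP, beat and side proteins, actins and tubulins, neprilysins) after values were seen. Lists are described by counts, without a set test. Genes named in the text are among the 12 of smallest p per direction, the 10 largest rises and falls among genes whose higher diet averaged at least 200, the 12 largest differences among the 200 genes of highest mean, up to 4 called members of smallest p per direction in each list and any member of a list of 20 or fewer, and the 8 of smallest p in the comparison with males. The others, chosen after their values were seen, are ATPCL, Act5C, AdSL, AdSS, Crz, Dh44, DnaJ-1, Faa, Fer1HCH, Fer2LCH, GNBP3, Got1, Got2, GstD1, Hpd, Hsc70-4, Hsc70-5, Hsf, Hsp23, Hsp26, Hsp27, Hsp70Bc, Hsp83, Ilp2, LKRSDH, Nop56, Paics, Pdp1, Prps, Pur-alpha, RpL3, SPE, dl, dpr12, beat-VII, DIP-epsilon and fzy.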

Additional observations from a re-analysis of the deposited data

Results flagged for a closer look

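Of 120 groups of 5 libraries checked, 10 held a library that lay apart from the other 4 by Dixon's test, where chance gives about 1 in 20. On LPHC these were the highest library for Hsp68 (replicate 2, 5398) and mag (replicate 1, 95.9) and the lowest for BomS2 (replicate 2, 2314) and ple (replicate 4, 2856). On HPLC they were the highest library for AspRS (replicate 3, 449.0), Shmt (replicate 3, 57506), Dgat2 (replicate 3, 137), BomS2 (replicate 3, 8211) and ple (replicate 1, 2227), and the lowest for Gclc (replicate 4, 2286). The values are normalised counts, and 4 of the 10 were high values in HPLC replicate 3. In none of these 8 genes did the library reach the range of the other diet.

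The 8 genes of smallest p in the comparison of the female with the male diet difference had a difference that differed between the sexes, each with the female value above the male one; the male recipes were other ones. The female minus male log2 was 12.73 for Lsp2, a larval storage protein gene, which stood at −0.18 in females and −12.91 in males. It was 9.04 for CG16898, 8.18 for tobi, a maltase-like target of brain hormones (−0.17 in females, −8.35 in males), 8.15 for CG1979 (1.19 and −6.96), 6.06 for CG10621 (0.68 and −5.39), 5.85 for CG32444 (0.06 and −5.79), 3.36 for Men, malic enzyme (0.25 and −3.11), and 3.27 for CG7675 (1.65 and −1.62). In 7 of these 8 the male difference was larger in size than the female one, the exception being CG7675.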

How the results depend on the processing

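The count of 3133 genes past the threshold was 2609 with a replicate block (1410 higher, 1199 lower), 3113 with edgeR, 3305 with DESeq2, 3280 without the filter on low values and 2807 with a minimum of 50. Libraries with the same replicate number did not deviate together (correlations of their deviations from −0.23 to 0.05, none highest with its own number). Whether such libraries were reared or prepared together is not stated, and these correlations cannot decide it. Scaling moved the split, to 3190 genes higher and 729 lower at the same total of reads and to 2152 and 1004 at the same total outside the yolk protein genes. Leaving out 1 library at a time gave 2651 to 3359 genes in all, 1396 to 1750 higher and 1231 to 1609 lower, and 4805 to 5295 genes whose difference was unlike that of males.

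Among the shares of reads in marker lists, the photoreceptor difference of 1.61 percentage points was 1.46 with the yolk protein genes left out of the total, where its adjusted p was 0.0582. Leaving out 1 library gave 1.39 to 1.83 points for photoreceptors, −5.89 to −5.18 for yolk proteins, −0.232 (past the threshold without HPLC replicate 4, adjusted p = 0.0381, exact permutation test) to −0.0684 for the fat body, 0.00811 to 0.0158 for trachea and epidermis (past it without LPHC replicate 3, adjusted p = 0.0238) and 0.000401 to 0.00083 for eggshell and germ line (past it without HPLC replicate 2, adjusted p = 0.019). The causes were not tested.

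Lists and a set of single genes, mostly those with values given by library, were followed under these settings. Of these results 3638 stayed within their limits and 303 list counts or medians moved beyond them. In that set 5 single-gene calls were lost, those of dpr12, beat-VII and DIP-epsilon at the same total of reads and of dpr12 and DIP-epsilon at the same total outside the yolk protein genes. Other named genes were followed only through their lists. The 2 lower channel genes, cac among them, became 0 at the same total of reads, and the 4 lower release genes became 1. No gene of that set had its direction reversed. At the same total of reads, where the median of all genes was 0.14, the medians of 25 of 76 lists turned from below 0 to above it, and the majority of calls turned in 18 lists. The promoter motif shares foreseen were not run. With 1 read worth 0.666 to 1.64 normalised counts, fold differences of genes near the minimum of 10 rest on few reads and are the least certain.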

Other observations

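Chemosensory receptor genes, active mostly in sensory neurons outside the brain, were detected in part: 40 of 104 in the table passed the filter. Of these, 15 were higher and 6 lower on LPHC. A gene could pass the filter on the libraries of a single diet, as Gr63a below did on LPHC. Low genes may therefore have been tested because they differed, and these counts partly restate the filter. The same limit applies to low odorant-binding proteins. Gr63a, a subunit of the carbon dioxide receptor, had 134, 164, 79.7, 114.9 and 79.6 in the LPHC libraries and 8.22, 12.4, 3.15, 5.28 and 5.18 in the HPLC libraries (log2 3.94, SE 0.30), and Or7a, an odorant receptor gene, stood at 3.18. The markers of olfactory and taste organs took 0.0352% to 0.0469% of reads on LPHC and 0.0334% to 0.0438% on HPLC. Odorant-binding proteins, carriers in the fluid around such neurons and in glia, were 6 of 25 higher and 5 lower, the 5 becoming 3 without HPLC replicate 2. Obp99d stood at 5.58 from a low level, and Obp44a, a glial member, had 8999, 9666, 7707, 12732 and 9580.2 on LPHC and 4563, 5323, 4832, 5065.4 and 3747 on HPLC (log2 1.04, SE 0.12).

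Of 36 genes of DNA replication and the cell cycle 12 were higher and 3 lower; the 12 became 8 without LPHC replicate 2, and the 3 became 1 without LPHC replicate 1. RnrS, a subunit of ribonucleotide reductase, stood at 0.71, and fzy, an activator of the anaphase-promoting complex, at 1.31, while stg, the phosphatase that starts mitosis, stood at −1.35. Of 25 neprilysin peptidases, which cut peptides outside cells, 7 were higher and 11 lower, a list drawn up after values were seen. Of 39 cuticle proteins 6 were higher and 5 lower.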
